A study of Mus musculus with 47 samples.

Results

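Cathepsins S, B, D, L, Z, H and C (*Ctss*, *Ctsb*, *Ctsd*, *Ctsl*, *Ctsz*, *Ctsh* and *Ctsc*), cystatin C (*Cst3*) and the alpha subunit of the hexosaminidases (*Hexa*) are 9 lysosomal or lysosome-related genes of the 54281 genes in the transcript table. They were chosen by name, matched to Ensembl identifiers through GENCODE M21, and all 9 had a mean of at least 1 TPM, a transcript level scaled for gene length and library total, over the libraries. The question was which share of each transcript was lost from the cortex when microglia were depleted, and whether what was left changed over the day. RNA from the microdissected cortex of 47 male C57BL/6J mice was sequenced, with 1 library per mouse. Of these, 23 mice were fed control diet and 24 were fed chow with the colony stimulating factor 1 receptor (CSF1R) inhibitor PLX5622 at 1200 ppm, with the same 10 days on either diet. All mice were about 3 months old and were housed 4 to a cage in 12 h of light and 12 h of dark. They were killed at Zeitgeber time (ZT) 2, 6, 10, 14, 18 or 22, where ZT counts hours from the onset of light. Each diet had 4 mice at each time, apart from 3 control mice at ZT14. PLX5622 in chow reaches the whole body and also removes other macrophages of the central nervous system that need CSF1R.

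Cathepsins cut proteins in endosomes and lysosomes, and some are also secreted and cut extracellular matrix. Cystatin C is a secreted inhibitor of the cysteine cathepsins, and the hexosaminidase alpha subunit is part of an enzyme that trims gangliosides. Lysosomes are abundant in microglia, the phagocytes of the brain, but neurons, astrocytes and other brain cells also use these enzymes.

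Total counts were 16597987 to 27626161 per library, and mitochondrial transcripts took 6.46% to 10.0% of them. The microglial score list, 14 genes without any lysosomal gene (*Csf1r*, *P2ry12*, *Tmem119*, *Cx3cr1* and others), was lower in PLX5622 mice for 14 of 14 genes, with 6.04% to 16.4% of the control level left (median 8.26%). Its summed level was 410 to 635 TPM in control libraries and 7.55 to 84.9 TPM in PLX5622 libraries. Markers of border macrophages, which line the vessels and meninges, moved with it. Their summed level was 7.82 to 20.2 TPM in control and 0.385 to 2.94 TPM in PLX5622 libraries, and *Pf4* and *Cbr2*, the 2 of 7 that could be tested, were both lower. The other 5 had control means of 0.569 to 1.09 TPM and PLX5622 means of 0.0360 to 0.159 TPM. Of the astrocyte, neuron, oligodendrocyte, endothelial and blood lists no gene passed the test (limma, adjusted p under 0.05), although 3 of 6 astrocyte genes and 2 of 5 oligodendrocyte genes had an unadjusted p under 0.05. Of 4 choroid plexus genes 1 was higher, and their summed level was 6.12 to 27.8 TPM in control and 7.40 to 33.8 TPM in PLX5622 libraries. The part of border macrophages and of the choroid plexus in the values of the 9 genes was not tested.

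Promoter windows from RefSeq (GRCm38.p6, 250 bases before to 50 after the start) were at hand for 7 of the 9 genes, all but *Ctsb* and *Ctsh*. They were searched on both strands for 3 motifs. These were CACGTG, the E-box read by clock factors and by TFEB and related regulators of lysosomal genes, TCACGTGA, a core of the lysosomal CLEAR element that contains the E-box, and GAGGAAGT, read by the myeloid factor PU.1. The stretches below are the matches, shown because the data bear on both microglial loss and the time of day. Capitals mark the motif, on the strand of the gene. The *Ctss* match is the reverse complement of the PU.1 motif and spans the transcription start (chr3:95526773-95526802, plus strand). The *Ctsc* match is also on the other strand and lies 151 to 144 bases before the start (chr7:88277923-88277952, plus strand). The *Ctsd* match to TCACGTGA lies 99 to 92 bases before the start (chr7:142387908-142387937, minus strand), and a second E-box lies 245 to 240 bases before it (chr7:142388056-142388077). The *Ctsl* E-box lies 236 to 231 bases before the start (chr13:64370740-64370767, minus strand).
Ctss, PU.1: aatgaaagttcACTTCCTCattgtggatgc
Ctsc, PU.1: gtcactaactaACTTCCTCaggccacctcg
Ctsd, CLEAR core: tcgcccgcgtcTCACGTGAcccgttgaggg
Ctsd, distal E-box: tccccCACGTGacctgtatcca
Ctsl, E-box: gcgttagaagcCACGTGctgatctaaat
Among all 32851 promoter windows of the table, 7.15% held the E-box, 0.974% the CLEAR core and 3.2% the PU.1 motif. Of the 7 windows, 2 held an E-box, 1 of them within the CLEAR core, and 2 held the PU.1 motif. In GENCODE M21 the *Ctss*, *Ctsl* and proximal *Ctsd* stretches overlap annotated exons of their own gene. A match is a description of these letters and not a binding site.

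PLX5622 lowered 7 of the 9 genes, raised none, and the size of the loss spanned a wide range. *Ctss* kept 9.14% of its control level, *Ctsc* 58.7%, *Ctsd* 70.8%, *Ctsh* 73.6%, *Hexa* 75.0%, *Ctsz* 75.2% and *Cst3* 78.9%. *Ctsl*, with 99.4% left, and *Ctsb*, with 101% left, did not pass the test. Among all 14580 genes tested by limma, 2.58% were lower, and the median log2 fold change over all of them was 0.03. The median over the 9 genes was -0.40. Bulk tissue cannot tell fewer cells of a type from less RNA per cell.

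**Figure D1:**
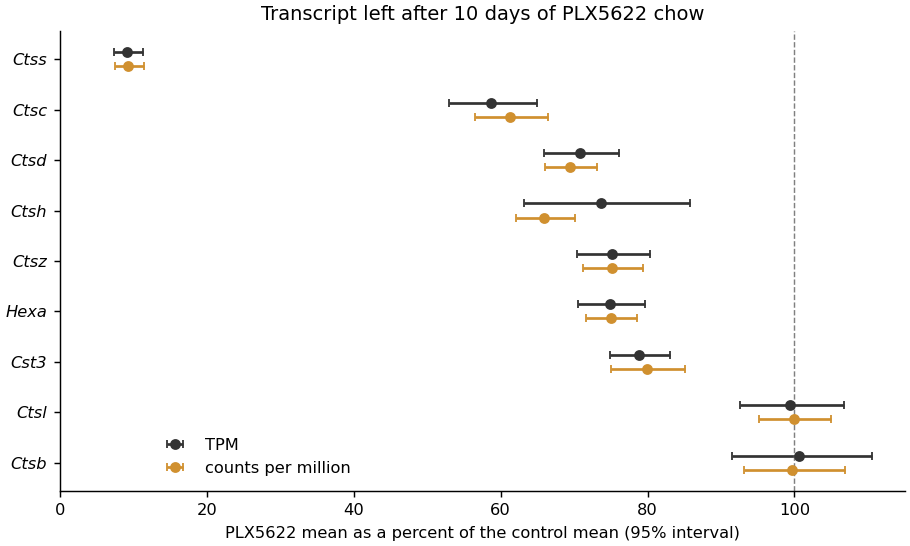
PLX5622 mean as a percent of the control mean (x axis) for each of the 9 genes (y axis), computed from TPM (dark points) and from CPM, the counts scaled to the library total (orange points), with 95% intervals; 23 control and 24 PLX5622 libraries, dashed line at 100%. *Ctss* stands near 9%, 6 genes lie between 58.7% and 79.9%, and the intervals of *Ctsl* and *Ctsb* include 100%; the gap between the TPM and count values is widest for *Ctsh*.

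*Ctss* (ENSMUSG00000038642, chromosome 3, 95526786 to 95556403, plus strand) encodes cathepsin S, a cysteine protease that trims the invariant chain in antigen presentation and stays active at neutral pH outside the cell. Control libraries held 79.9 to 114 TPM, with a median of 93.6 TPM. PLX5622 libraries held 1.26 to 17.7 TPM, with a median of 8.65 TPM. The highest PLX5622 library stayed far below the lowest control library. The log2 fold change on the log2(TPM + 1) scale was -3.50 (SE 0.17, limma, adjusted p = 4.55e-22), and 9.14% of the level was left (95% interval 7.40% to 11.3%), inside the range of the microglial score list. Among PLX5622 mice *Ctss* varied more than any other of the 9 genes, with a coefficient of variation of 52.0% against 9.89% in control mice. The lowest library, at ZT10, held 21 *Ctss* counts and the highest held 340, against 1215 to 2157 counts in control libraries. *Ctss* was the only 1 of the 9 genes with every PLX5622 library below every control library in TPM, which 0.583% of all genes tested also showed.

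*Ctsc* (ENSMUSG00000030560, chromosome 7, 88278085 to 88310888, plus strand) encodes cathepsin C, the dipeptidyl peptidase that activates granule serine proteases. It had the lowest control level of the 9 genes, 3.93 to 7.32 TPM with a median of 5.44 TPM, and 2.13 to 4.10 TPM with a median of 3.34 TPM in PLX5622 mice. Of 24 PLX5622 libraries 21 lay below the lowest control library, and 58.7% of the level was left (95% interval 53.0% to 64.9%). The log2 fold change was -0.62 (SE 0.06, limma, adjusted p = 5.72e-12), which the added pseudocount of 1 TPM shrinks at this level. On counts it was -0.72 (edgeR, adjusted p = 3.08e-14).

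*Ctsz* (ENSMUSG00000016256, chromosome 2, 174427493 to 174439039, minus strand) encodes cathepsin Z, a carboxypeptidase. Control libraries held 34.7 to 55.6 TPM (median 39.9 TPM) and PLX5622 libraries 25.1 to 36.5 TPM (median 31.3 TPM). Apart from 3, all PLX5622 libraries were below the lowest control library, and the log2 fold change was -0.40 (SE 0.05, limma, adjusted p = 2.45e-09).

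*Ctsh* (ENSMUSG00000032359, chromosome 9, 90054152 to 90076089, plus strand) encodes cathepsin H, an aminopeptidase. Its TPM ranges overlapped widely, 11.0 to 29.8 TPM (median 18.2 TPM) in control and 7.62 to 22.4 TPM (median 12.9 TPM) in PLX5622 libraries, with 6 of 24 PLX5622 libraries below the lowest control library. The log2 fold change was -0.42 (SE 0.10, limma, adjusted p = 0.0108), with the largest adjusted p of the 7 lower genes. The counts of the same libraries separated the diets in full. Control libraries held 11.5 to 17.8 CPM and PLX5622 libraries 7.65 to 11.5, with 24 of 24 below the lowest control library. By counts 66.0% was left (95% interval 62.1% to 70.1%), with a log2 fold change of -0.61 (edgeR, adjusted p = 6.42e-16). The coefficient of variation among control libraries was 25.6% in TPM and 11.2% in CPM. The cause of this gap between the tables was not tested.

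*Ctsd* (ENSMUSG00000007891, chromosome 7, 142375911 to 142388038, minus strand) encodes cathepsin D, the main aspartic protease of lysosomes. It ranged from 175 to 320 TPM in control mice (median 229 TPM) and from 133 to 203 TPM in PLX5622 mice (median 160 TPM). All 24 PLX5622 libraries were below the control median and 19 below the lowest control library. The log2 fold change was -0.49 (SE 0.05, limma, adjusted p = 1.74e-10), and the mean difference was 67.8 TPM, close to the 85.7 TPM lost from *Ctss*, since *Ctsd* started from a higher level.

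*Cst3* (ENSMUSG00000027447, chromosome 2, 148871722 to 148875692, minus strand), the cystatin C gene, was by far the most abundant. Control libraries held 3511 to 4685 TPM (median 3913 TPM) and PLX5622 libraries 2619 to 3950 TPM (median 3117 TPM), with 20 of 24 below the lowest control library. The log2 fold change was -0.34 (SE 0.04, limma, adjusted p = 3.97e-09). The loss was 846 TPM, 82.6% of the net 1025 TPM lost over the 9 genes, although *Cst3* lost the smallest share among the 7 genes that fell. The other 8 genes together went from 765 ± 102 TPM (SD, n = 23) to 586 ± 65.2 TPM (SD, n = 24). TPM values sum to the same total in each library, so a gene of this abundance also moves the scale of the others slightly. Within libraries, *Ctsl* minus *Cst3* was 0.33 higher on the log2 scale in PLX5622 mice (95% interval 0.20 to 0.45), a measure that does not depend on that scale.

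*Hexa* (ENSMUSG00000025232, chromosome 9, 59539540 to 59565109, plus strand) held 28.1 to 44.9 TPM in control libraries (median 35.4 TPM) and 19.7 to 31.1 TPM in PLX5622 libraries (median 27.2 TPM). All 24 PLX5622 libraries lay below the control median and 17 below the lowest control library. The log2 fold change was -0.40 (SE 0.04, limma, adjusted p = 1.19e-09), nearly that of *Ctsz*.

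*Ctsb* and *Ctsl*, which encode the widely expressed lysosomal cysteine proteases cathepsin B and cathepsin L, were the exceptions. *Ctsb* (ENSMUSG00000021939, chromosome 14, 63122462 to 63145923, plus strand) held 197 to 380 TPM (median 255 TPM) in control and 201 to 341 TPM (median 266 TPM) in PLX5622 libraries. The ranges overlapped almost fully, with a log2 fold change of 0.02 (SE 0.07, limma, adjusted p = 0.936), whose sign turned on counts and under another scaling. *Ctsl* (ENSMUSG00000021477, chromosome 13, 64359337 to 64370890, minus strand) held 54.5 to 97.5 TPM (median 73.9 TPM) in control and 63.8 to 91.7 TPM (median 73.1 TPM) in PLX5622 libraries. Its log2 fold change was -0.01 (SE 0.05, limma, adjusted p = 0.942). The 95% intervals of the share left were 91.5% to 111% for *Ctsb* and 92.6% to 107% for *Ctsl*, so a loss as large as that of *Cst3* lies outside both.

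The counts gave the same 7 genes as lower, among a background of 4.99% of 18274 genes called lower by edgeR. In CPM, 4 genes (*Ctss*, *Ctsd*, *Ctsh* and *Hexa*) had every PLX5622 library below every control library, where 0.82% of all genes did. Exons of *Ctsb*, *Ctsz* and *Hexa* overlap exons of *Fdft1*, *Nelfcd* and *Tmem202* on the other strand, and those of *Ctsd* overlap exons of *Gm49369* on its own strand. Whether the counting used strand is not given in the sources used here, so a share of these values could belong to the neighbour.

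Levels per length allow the 9 genes to be ordered. In control mice the order of mean TPM was *Cst3*, *Ctsb*, *Ctsd*, *Ctss*, *Ctsl*, *Ctsz*, *Hexa*, *Ctsh* and *Ctsc*. The ranges of *Ctsb* and *Ctsd*, of *Ctss* and *Ctsl*, of *Ctsl* and *Ctsz*, of *Ctsz* and *Hexa*, and of *Hexa* and *Ctsh* overlapped between libraries. In PLX5622 mice *Ctss* moved from the fourth to the eighth place. *Ctss* was higher than *Ctsl* in 23 of 23 control libraries and in 0 of 24 PLX5622 libraries. *Ctsb* was higher than *Ctsd* in 20 of 23 control libraries, by 0.17 ± 0.12 (SD) on the log2 scale, and in 24 of 24 PLX5622 libraries, by 0.68 ± 0.09.

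Whether the genes changed by unequal amounts was tested on the ratio of each pair within a library, which is free of the library's scaling. Of 36 pairs 28 changed their ratio (permutation of diet within ZT, two-sided, adjusted over the 36 pairs). *Ctss* parted from all 8 others, least from *Ctsc*, by -2.95 on the log2 scale (95% interval -3.35 to -2.55, permutation adjusted p = 2.12e-05, at the smallest p of 1e-05 that the permutations give). *Ctsb* and *Ctsd*, the most similar pair in control level, parted by 0.51 (95% interval 0.45 to 0.57), and *Ctsl* and *Hexa* by 0.40 (95% interval 0.34 to 0.46). *Ctsc* fell by more than each of *Ctsd*, *Ctsz*, *Ctsh*, *Cst3* and *Hexa*, and the smallest of these gaps, *Ctsd* minus *Ctsc*, was 0.27 (95% interval 0.12 to 0.42, permutation adjusted p = 0.00111). The ratios of 8 pairs did not pass. They were *Ctsb* with *Ctsl* (difference 0.02, 95% interval -0.06 to 0.10), *Ctsz* with *Hexa* (0.01, -0.07 to 0.08), *Ctsz* with *Cst3* (-0.07, -0.17 to 0.03), *Cst3* with *Hexa* (0.08, -0.03 to 0.19), and *Ctsh* with *Ctsd*, *Ctsz*, *Cst3* and *Hexa*, whose intervals were wider. These ratios are of TPM, in which *Ctsh* varied more than in counts. By counts the 95% interval of the share left was 62.1% to 70.1% for *Ctsh*. It was 71.2% to 79.3% for *Ctsz*, 71.6% to 78.6% for *Hexa*, 75.0% to 85.0% for *Cst3* and 66.0% to 73.1% for *Ctsd*.

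**Figure D2:**
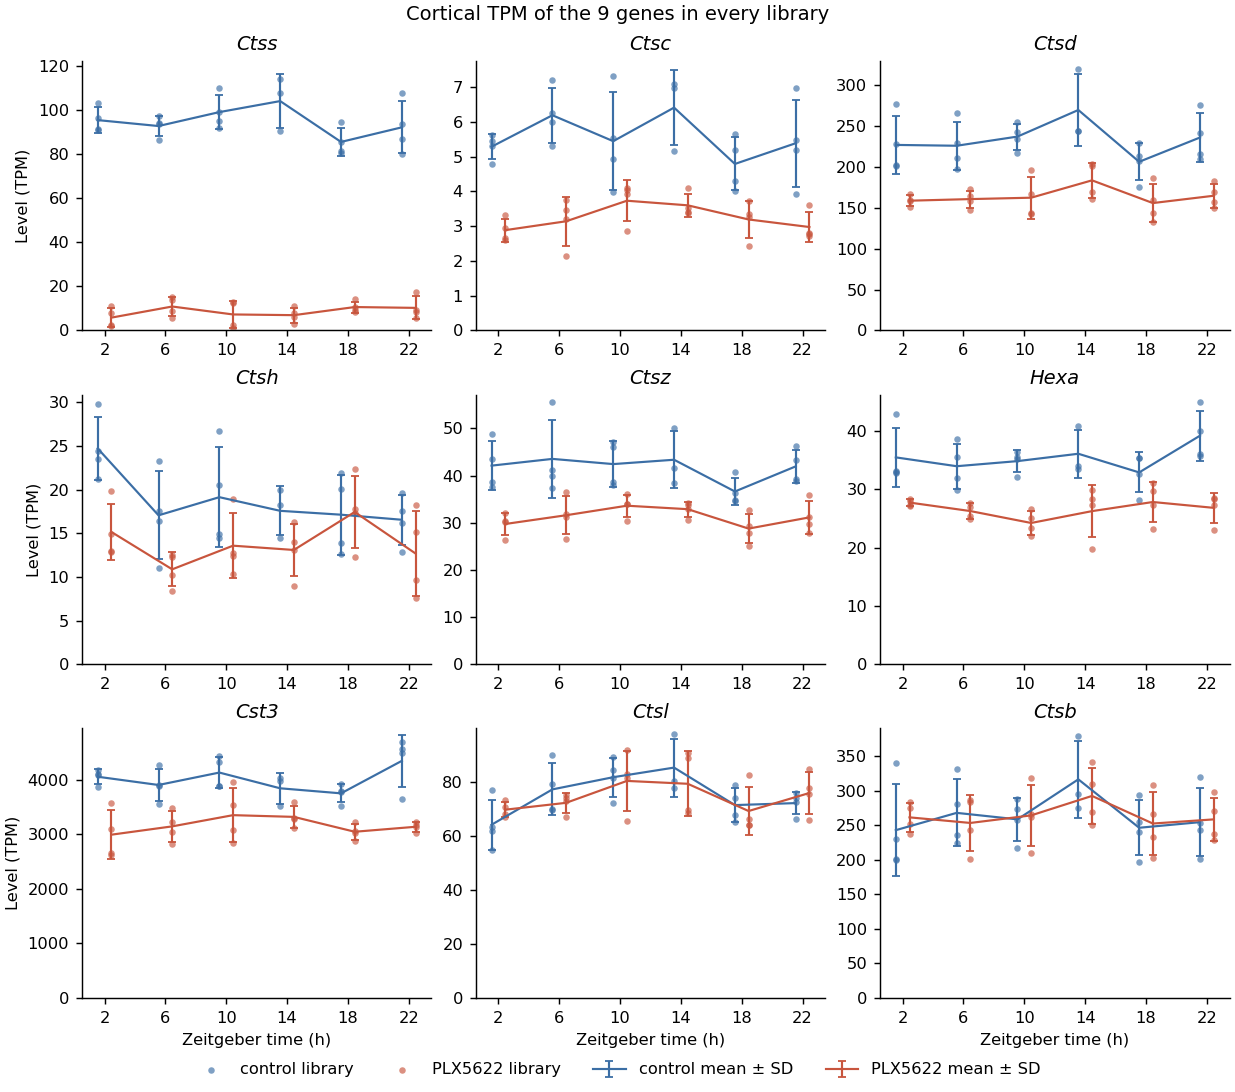
TPM (y axis, from 0) against Zeitgeber time in hours (x axis) for each of the 9 genes, with 1 point per library and lines through the mean ± SD of each group (n = 4, and n = 3 for control mice at ZT14). Control (blue) and PLX5622 (red) points are far apart for *Ctss*, apart with a few crossings for *Ctsc*, *Ctsd*, *Ctsz*, *Hexa* and *Cst3*, and mixed for *Ctsl* and *Ctsb*.

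The loss was then followed over the day. Of the 54 contrasts of the 9 genes at 6 times 23 were lower in PLX5622 mice by limma, and none was higher. At ZT2 *Ctss*, *Ctsc*, *Ctsd*, *Ctsz* and *Cst3* were called, where 1.18% of all genes were lower, and at ZT6 *Ctss*, *Ctsc*, *Ctsd* and *Ctsz* (0.967% of all genes). *Ctss*, *Ctsd* and *Hexa* were called at ZT10 (1.02%), and *Ctss*, *Ctsc*, *Ctsd* and *Hexa* at ZT14 (0.885%). At ZT18 *Ctss* alone was called (0.775%), and at ZT22 all but *Ctsb*, *Ctsl* and *Ctsh* (1.25%).

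*Ctss* was called at 6 of 6 times. Its control mean ran from 85.4 ± 6.50 TPM (SD, n = 4) at ZT18 to 104 ± 12.4 TPM (SD, n = 3) at ZT14, and its PLX5622 mean from 5.82 ± 4.31 TPM (SD, n = 4) at ZT2 to 10.9 ± 4.39 TPM (SD, n = 4) at ZT6. The share left was 6.11% at ZT2 and 12.4% at ZT18, the lowest and highest. At ZT10 the 4 PLX5622 libraries held 1.26, 2.43, 12.6 and 12.8 TPM, so mice of 1 group fell into a low and a higher pair. *Ctsd* kept 68.1% to 75.5% and was called at 5 times, *Ctsc* kept 50.7% to 68.5% and was called at 4, and *Ctsz* kept 70.6% to 79.2% and was called at 3. *Cst3* was called at ZT2, with 73.8% left, and at ZT22, with 72.2% left. At ZT14, with 3 control mice, 86.4% was left (limma, adjusted p = 1.0, unadjusted p = 0.0449). A difference in the *Cst3* loss between times did not pass. The F test of the interaction (limma) had an unadjusted p of 0.140 with a cosine and sine and 0.426 with 6 separate times.

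The counts called more of these contrasts, 36 of 54 by edgeR. *Ctsd*, *Ctsz*, *Ctsh* and *Hexa* each joined *Ctss* with 6 of 6 times, *Ctsc* had 5 and *Cst3* had 1. The shares of all genes called lower by edgeR were 1.88% at ZT2, 1.42% at ZT6, 1.64% at ZT10, 1.47% at ZT14, 1.31% at ZT18 and 1.57% at ZT22. For *Ctsh* the 2 tables differed most. At ZT18 its TPM was 17.1 ± 4.60 in control and 17.4 ± 4.14 in PLX5622 mice (SD, n = 4 each), which is 102% left, whereas its CPM were 13.2 ± 1.40 and 9.96 ± 1.74, which is 75.4% left (edgeR, adjusted p = 0.0216). *Ctsb* and *Ctsl* were called at none of the 6 times by either tool.

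**Figure D3:**
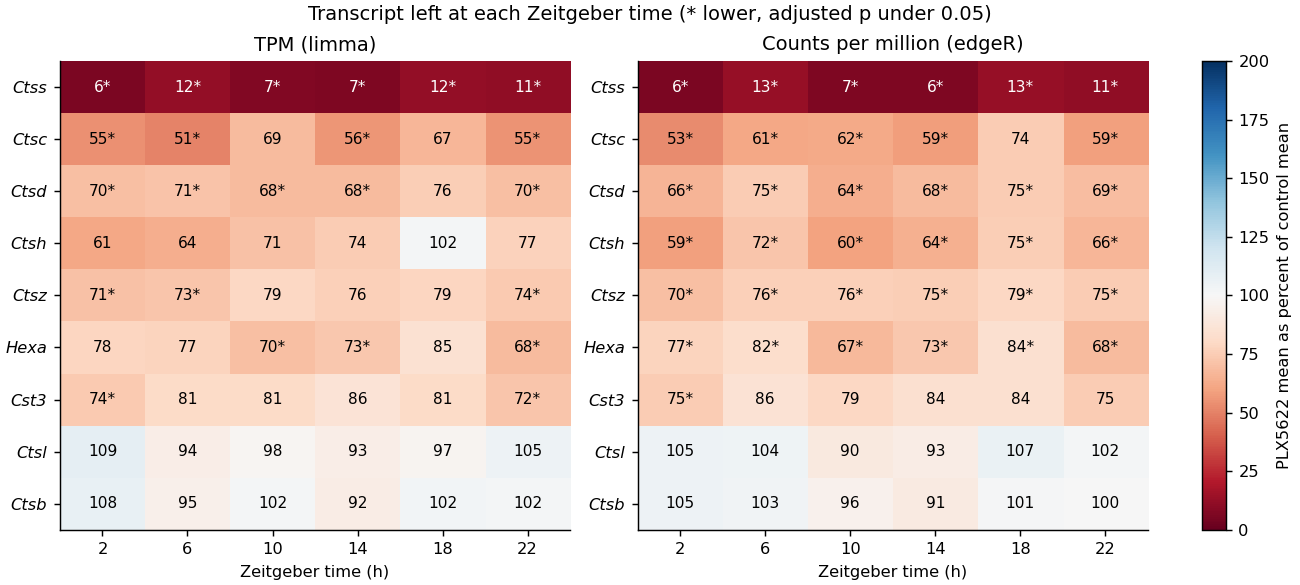
PLX5622 mean as a percent of the control mean for each gene (rows) at each Zeitgeber time in hours (columns), from TPM with limma on the left and from CPM with edgeR on the right; colour runs from 0 (dark red) through 100 (white) to 200 (blue), and * marks contrasts called lower. *Ctss* keeps 6% to 13% at every time in both panels, and the *Ctsh* row carries no mark in TPM and 6 marks in counts.

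None of the 9 genes cycled by JTK_CYCLE, a rank test against a 24-h wave, in control mice or in PLX5622 mice. Over all genes 0.0754% were called in control mice and 0.61% in PLX5622 mice. At an unadjusted p under 0.05 there was 1 of the 9 in each diet, *Ctsl* in control mice (exact p = 0.0353, adjusted p = 0.516) and *Ctsc* in PLX5622 mice (exact p = 0.0362, adjusted p = 0.401).

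*Ctss* did not pass the rhythm test in control mice (JTK_CYCLE adjusted p = 0.870). A wave fitted to the control mice alone had an amplitude of 0.07 (SE 0.04, unadjusted p = 0.221) on the log2(TPM + 1) scale, with its peak at ZT 9.60. In PLX5622 mice alone the amplitude was 0.23 (SE 0.25, unadjusted p = 0.658; JTK_CYCLE adjusted p = 1.0). A fit with 1 error for both diets gives *Ctss* an SE of 0.17 in either, so the test of a difference in rhythm has little power for a control wave of this gene. The amplitudes of the other genes were 0.05 to 0.17 in control and 0.05 to 0.15 in PLX5622 mice.

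*Ctsl* had the largest control amplitude, 0.17 (SE 0.05), with a peak fitted close to ZT12 (SE 1.08 h). Its control mean was lowest at ZT2, 64.1 ± 9.27 TPM (SD, n = 4), and highest at ZT14, 85.2 ± 10.8 TPM (SD, n = 3). A wave fitted to the 23 control mice alone had an unadjusted p of 0.00706 (F test). The cosine and sine fit to all 47 libraries, with 1 error for both diets, gave the control wave an unadjusted p of 0.00517. Its adjusted p was 0.181 (limma). The same fit on counts called *Ctsl* (edgeR, adjusted p = 0.0166), and so did limma on TPM scaled by median-of-ratios size factors (adjusted p = 0.0214). On counts 3.22% of all genes were called by this fit, so a call is more common there. In PLX5622 mice the amplitude of *Ctsl* was 0.07 (SE 0.05), with means from 69.1 TPM at ZT18 to 80.3 TPM at ZT10.

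A difference in rhythm between the diets was called for 0 of the 9 genes (F test of the interaction, limma), as for 0.0% of all genes. The unadjusted p ran from 0.140 for *Cst3* to 0.899 for *Ctsd*, with 0 of 9 under 0.05. With the 6 times as separate groups, 0 of 9 were under 0.05 as well. For *Ctsl*, whose amplitude was 0.17 in control and 0.07 in PLX5622 mice, it was 0.379. DESeq2 and edgeR on counts also called 0 of the 9.

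**Figure D4:**
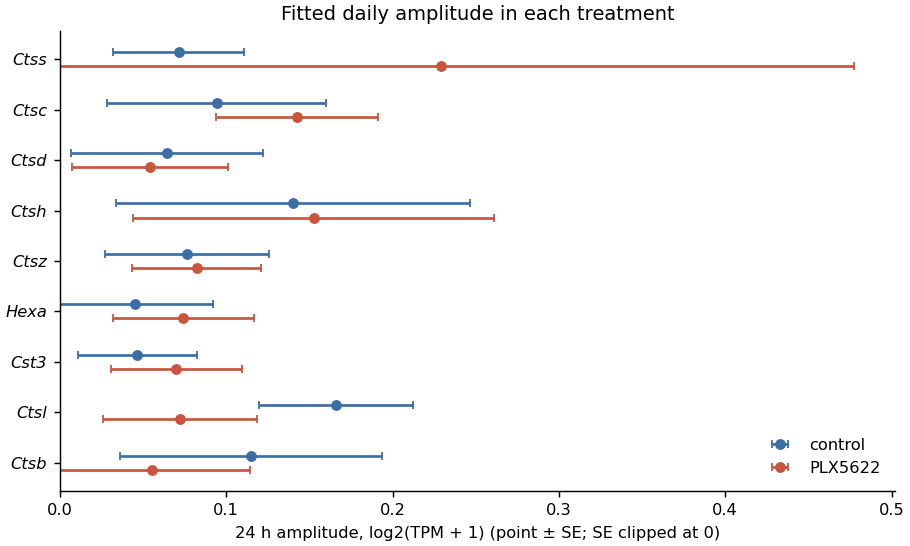
Amplitude of the fitted 24-h wave on the log2(TPM + 1) scale (x axis) for each gene (y axis) in control (blue) and PLX5622 (red) mice, as the estimate ± SE from a fit to each diet alone, cut at 0. The *Ctsl* point of control mice, 0.17, lies farthest from 0 in units of its SE, and the SE bar of *Ctss* in PLX5622 mice is the widest.

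The RNA level of the microglial list varied between PLX5622 mice. Each gene was therefore also set against the microglial score, the mean log2(TPM + 1) of the 14 list genes. The score was 4.76 ± 0.15 (SD, n = 23) in control and 1.66 ± 0.59 (SD, n = 24) in PLX5622 mice, where it ran from 0.57 to 2.47. Deviations from the mean of the ZT group were correlated within each diet, in 18 relations in all. Among the 24 PLX5622 mice, only *Ctss* followed the score (Pearson's r = 0.93, permutation adjusted p = 0.00018; Spearman's rho = 0.93, permutation adjusted p = 0.00018), and without the 2 mice farthest from the median r was 0.91. The r of the other 8 genes lay between -0.27 for *Ctsh* and 0.38 for *Ctsd*, with adjusted p from 0.139 to 0.940 by permutation. Their rho lay between -0.27 and 0.41, with permutation adjusted p from 0.108 to 0.918. These tests cannot tell a gene unrelated to the remaining microglia from one with a small part tied to them. *Ctsd*, for example, lost 67.8 TPM and had an SD of 18.7 TPM among PLX5622 mice. The genes of the score list kept a median of 8.26% of their control level. The share of all genes that follow the score in PLX5622 mice is not given here.

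Among the 23 control mice, 6 of the 9 genes followed the score. The share of all genes that follow it is not given here, so this count has no background to be read against. Pearson's r was 0.87 for *Ctss* (rho 0.85), 0.78 for *Ctsz* (rho 0.77), 0.67 for *Hexa* (rho 0.73), 0.66 for *Ctsc* (rho 0.66), 0.65 for *Ctsl* (rho 0.70) and 0.64 for *Ctsd* (rho 0.68), with permutation adjusted p from 0.00018 to 0.0201 for r and from 0.00036 to 0.0134 for rho. Without the 2 mice farthest from the median r was 0.82, 0.77, 0.71, 0.55, 0.74 and 0.66 in the same order. In these mice the score also moved with the share of mitochondrial counts (r = -0.72, rho = -0.73, permutation adjusted p = 0.0038 for r) and with the astrocyte list (r = 0.66, rho = 0.67, permutation adjusted p = 0.0038 for r), adjusted over 8 such relations. Without the 2 mice farthest from the median these r were -0.70 and 0.62, and in PLX5622 mice they were -0.06 and 0.07. With the neuron list r was 0.52 in control mice (rho = 0.55, permutation adjusted p = 0.0856 for r) and 0.10 in PLX5622 mice. The part of these measures in the correlations of the 6 genes was not tested beyond the scaling that follows. After scaling TPM by median-of-ratios size factors, 2 of the 6, *Ctss* (r = 0.82) and *Ctsz* (r = 0.66), still passed (permutation adjusted p = 0.0376 for both), while 8 of the 9 passed with ZT group means kept. Without the control mouse replicate 4 at ZT2, 3 of the 9 passed. Whether the correlations differ between the diets was not tested.

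**Figure D5:**
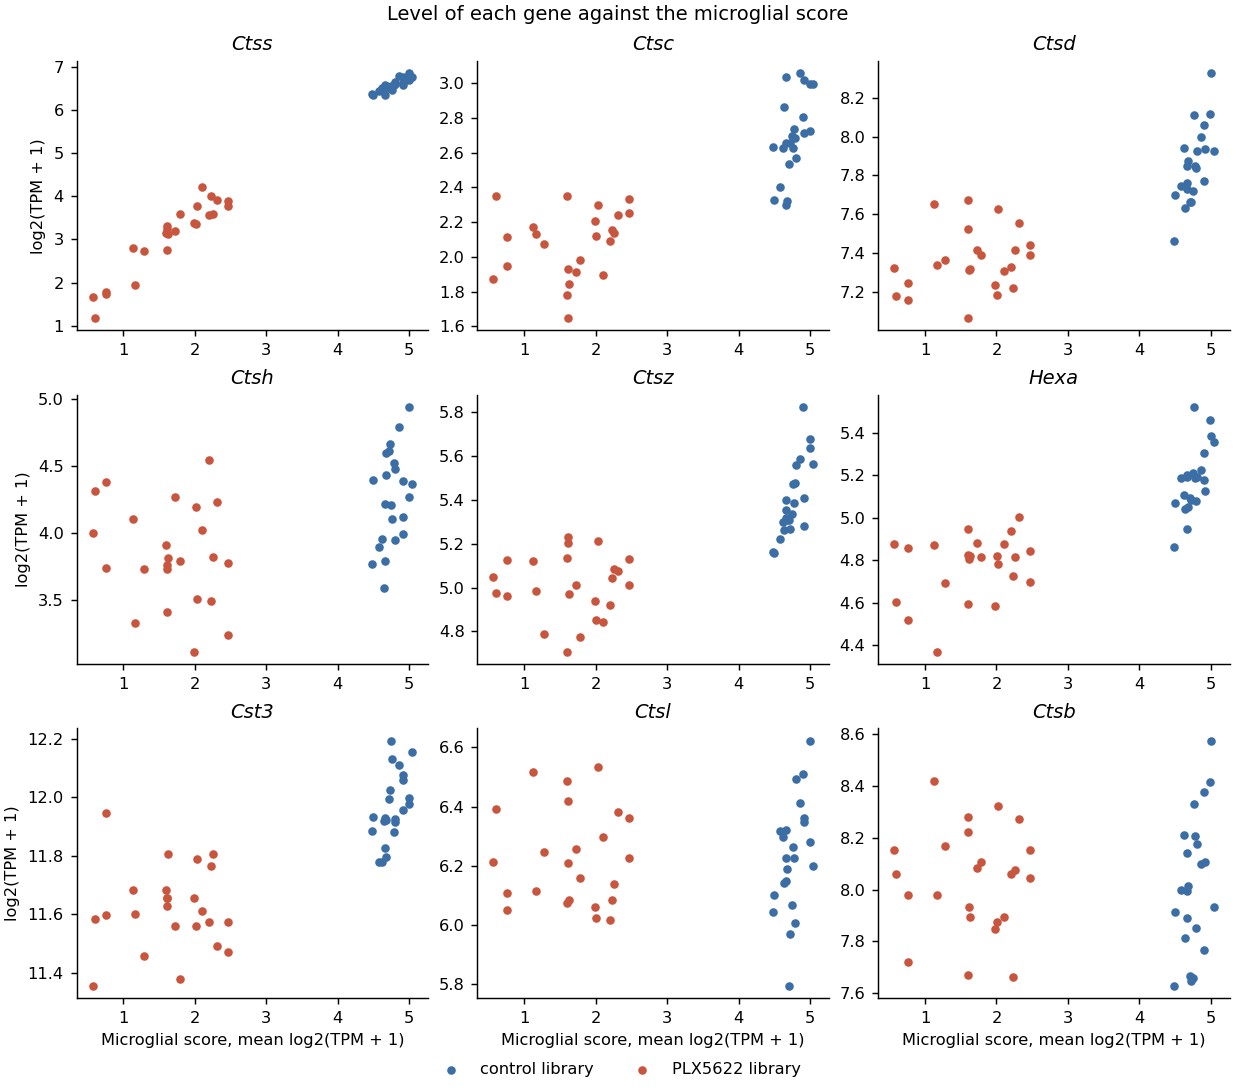
Level of each gene as log2(TPM + 1) (y axis, own range per panel) against the microglial score, the mean log2(TPM + 1) of 14 microglial genes (x axis), with 1 point per library; control in blue, PLX5622 in red. The PLX5622 points of *Ctss* climb with the score from 0.57 to 2.47, while those of the other 8 genes show no slope that passed the test.

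For each gene, the genes with the most similar course within a diet were listed as a description. They were found among all genes tested by Pearson's r of log2(TPM + 1). ZT group means were kept, so differences between times are part of these r. The points share library, depth and composition. *Ctss* was nearest to *B2m* (r = 0.85, n = 23) and *Fcgrt* (r = 0.85) in control mice, and to the complement genes *C1qb* (r = 0.95, n = 24) and *C1qc* (r = 0.95) in PLX5622 mice. *Cst3* was nearest to *Rpl8* (r = 0.87) and *Mmd2* (r = 0.85) in control mice. In PLX5622 mice it was nearest to *Aldoc* (r = 0.90) and *Apoe* (r = 0.90), genes highly expressed in astrocytes. *Ctsb* was nearest to *Reep5* in control mice (r = 0.97) and had an r of 0.95 with it in PLX5622 mice. Among the 9 genes themselves, *Ctsb* and *Ctsd* were closest, with r of 0.90 in control and 0.89 in PLX5622 mice, although the diets moved their means apart. *Ctss* and *Ctsz* had an r of 0.75 in control and -0.04 in PLX5622 mice.

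Other genes of the lysosome mostly did not pass the test. Of the 61 measured genes in 5 lists, 5 were lower and none was higher by limma, where 2.58% of all genes tested were lower. The membrane and acidification list held 2 of 16, *Laptm5*, a lysosomal membrane protein, with 10.1% of its control level left, and *Cd68*, a macrophage lysosomal glycoprotein, with 37.8% left. Of 30 hydrolases and activators 3 were lower, the protease *Lgmn* (69.5% left), the mannosidase *Man2b1* (68.8% left) and the sterol carrier *Npc2* (90.7% left). No gene of 4 other cathepsins, 2 cystatins and 9 sorting and control genes passed, with 1, 0 and 3 at an unadjusted p under 0.05. The median log2 fold change of the 5 lists was 0.01 to 0.06, beside 0.03 over all genes and -0.40 over the 9 genes. On counts, edgeR called 12 of the 61 lower, where 4.99% of all genes it tested were lower. Among the 12 was *Ctsa* of the other cathepsins, with a log2 fold change of -0.12 (edgeR, adjusted p = 0.0165). The count of small changes thus depended on the table.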

How the data were processed

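The authors mapped reads to GRCm38.p6 with STAR v2.7.0f and computed the deposited TPM with Salmon v1.0.0 and the Gencode annotation. The other deposited table is named for FPKM but holds whole-number counts per gene, and it was used as counts. The submitters' processing notes also name featureCounts, edgeR and limma. Groups came from the sample titles and diets. The 9 genes, the lists, motifs and tests were chosen with earlier results of these data known. Named genes are the 9 genes, up to 3 called genes per list by size of change, and the 2 most similar genes per gene, of which some are given. *Ctsa* was named after its value was seen.

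Tests used limma 3.58.1 in R 4.3.3 on log2(TPM + 1), and kept genes averaging 1 TPM or more. Terms were treatment and a 24-h cosine and sine, or 12 group means for single times. JTK_CYCLE was written anew with 6 phases. Benjamini-Hochberg adjustment ran over all genes tested (threshold 0.05). Percent left is the ratio of means with a delta-method interval. Permutation tests drew 100000 resamples. Alternatives used edgeR 4.0.16 (quasi-likelihood) and DESeq2 1.42.0 on counts, other filters, pseudocounts and scalings, and each library left out. The limma, edgeR and DESeq2 fits and JTK_CYCLE were tested on simulated data with known changes. Tables and figures used Python 3.11.15, pandas 2.3.3 and matplotlib 3.10.9. P-values measure the spread between mice, each taken as independent. Mice were housed 4 to a cage and which mice shared a cage is not given, so an effect of the cage was not tested. Intervals cover sampling of mice, and for *Ctss* in PLX5622 mice counting error at 21 to 340 counts per library adds to it.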

Additional observations from a re-analysis of the deposited data

Results flagged for a closer look

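In 4 of 99 groups of 4 mice, 1 mouse stood apart from the other 3 by Dixon's criterion, where about 4.95 are given by chance at 1 in 20. *Ctsl* in PLX5622 mice at ZT18 was 82.3 TPM in replicate 4 and 63.8 to 66.3 TPM in the others. *Ctsc* in PLX5622 mice was 2.86 TPM in replicate 2 at ZT10, beside 3.93 to 4.10 TPM, and 3.61 TPM in replicate 2 at ZT22, beside 2.73 to 2.80 TPM. *Hexa* in control mice at ZT2 was 43.0 TPM in replicate 4, beside 32.8 to 33.1 TPM.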

How the results depend on the processing

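The 7 lower genes stayed lower and past the threshold under every alternative that tested them, and the number of genes cycling in PLX5622 mice and of genes with a different rhythm stayed at 0 under those run. Unequal pairs numbered 26 on log2(TPM + 1), 29 under the replicate block and 30 on counts, against 28. A filter at a mean of 5 TPM left out *Ctsc* and gave 15 ZT contrasts against 23, where edgeR gave 36 and edgeR with the replicate block 37. Genes cycling in control mice numbered 1, *Ctsl*, by the cosine and sine fit of edgeR and of edgeR with the replicate block. Limma with the replicate block and limma under median-of-ratios scaling also called *Ctsl* by this fit. Of these fits, the share of all genes called is given only for edgeR without the block, 3.22%. Correlation with the score passed for 2 genes under the replicate block in PLX5622 mice (*Ctss* and *Ctsc*, r = 0.53), and in control mice, against 6, for 2 under median-of-ratios scaling, 6 by Spearman's rho, 8 with ZT means kept and 8 under the replicate block, where *Ctsb* (permutation adjusted p = 0.00673) and *Cst3* (0.00952) were added. Lower genes in the other lysosomal lists numbered 12 by DESeq2, by edgeR, by edgeR without a filter and by edgeR with the replicate block, and 10 under median-of-ratios scaling, against 5. The *Ctsb* log2 fold change turned to -0.023 by DESeq2, -0.022 by edgeR, -0.015 by edgeR without a filter, -0.020 by edgeR with the replicate block and -0.0087 under median-of-ratios scaling. Signs of weak correlations with the score in PLX5622 mice also turned, for *Ctsb* to -0.0089 with ZT means kept and -0.00072 after median-of-ratios scaling, for *Ctsl* to -0.026 by Spearman's rho, -0.016 with ZT means kept and -0.051 after scaling, and under the replicate block for *Ctsz* to -0.067 and for *Cst3* to -0.33. The cause of these shifts was not tested.

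Leaving out each library gave 28 unequal pairs, 19 to 24 ZT contrasts, 7 lower genes, 3 to 8 genes with the score in control mice, a *Ctsb* log2 fold change of -0.0046 to 0.039 and a *Ctsl* one of -0.025 to 0.0046. The edgeR fits with the replicate block, the fits to each diet alone and the control alternatives for the score were added after seeing the data. No label says what the replicate numbers mark, and the check used for pairing, a correlation over 0.1 in every same-number pair, was met by 7 of 23. Those pairs had correlations of -0.093 to 0.198 (median 0.072), beside a median of -0.018 for 69 pairs of other numbers. Each library had 3 or 4 libraries of the other diet at its time to match, and 23 of 47 correlated best with their own number. This is a hint from the data that numbers share something. The main tests carried no term for the numbers, so whatever they share is left in those results. The block moved no other count by over 1.5 times. Depth limited *Ctss* in the PLX5622 mice with the lowest microglial scores, with 21 counts in the lowest library.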
